A study of Homo sapiens with 16 samples.

Results

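Matrix metalloproteases (MMPs) are zinc-dependent endopeptidases that cut collagens, proteoglycans and other proteins around the cell, and the tissue inhibitors of metalloproteases (TIMPs) block them. The genes described here are MMP1, MMP2, MMP3, MMP10, MMP14 and MMP16, the related secreted protease gene ADAMTS19, and TIMP1, TIMP2 and TIMP3, 10 of the 18417 genes that have a row of their own in the expression table. They were picked by name, with earlier results of these data known, among them the STAG2-related differences of MMP3 and ADAMTS19 in H4 cells. Where a gene had several rows, as MMP16 and TIMP3 did with 2 each, the one of highest mean value was used. The H4 differences by STAG2 status are therefore given as a description, with standard errors and intervals and without p-values.

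Total RNA of 16 samples from 3 human cancer cell lines, growing without treatment and not synchronised, was hybridised to 16 Affymetrix whole-transcript arrays. H4 and 42MGBA are labelled as glioblastoma and HCT116 as colorectal cancer cells. The lines differ in the state of STAG2, which encodes part of cohesin, a ring-shaped complex on chromosomes that keeps sister chromatids paired and shapes chromatin loops. The STAG2-deficient H4 group held the parental cells, whose STAG2 is mutant, and the clones 10 and 12, which had not recombined. The corrected H4 group held the clones 8-1, 8-3 and 88-1, in which STAG2 had been knocked in and Cre had acted. The deficient 42MGBA group held the mutant parental cells and the knock-in clones 53 and 92 before Cre. The corrected 42MGBA group held the clones 53-1, 53-7 and 92-6 after Cre. HCT116 was represented by clones 24 and 27, which had not recombined and carry wild-type STAG2, and by the STAG2 knockout clones 7 and 21. Every array other than the parental ones comes from a different clone, so clone and STAG2 status cannot be fully told apart. By their numbers, clones 8-1 and 8-3 come from 1 parent clone, and so do 53-1 and 53-7. Where no label says that samples were grown separately, p-values measure the spread between these samples, which may be partly technical.

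MMPs are made as inactive zymogens that are activated when their propeptide is removed, by plasmin, furin or other MMPs. MMP1 is an interstitial collagenase. MMP3 and MMP10 are stromelysins with a broad range of substrates, and MMP3 can also activate the MMP1 zymogen. MMP2 is a gelatinase that is activated at the cell surface by the membrane-anchored MMP14, with TIMP2 serving as the bridge between the pair. MMP16 is a further membrane-type MMP. ADAMTS19 belongs to the secreted metalloproteases with thrombospondin repeats. In brain tumours MMP2 and MMP14 are known for their part in breaking down the matrix that tumour cells move through.

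Upstream sequence was at hand for 5 of the 10 genes, in RefSeq windows of 300 bases on GRCh38.p14 with 250 bases before the gene start and 50 after it. It is printed for ADAMTS19, which differed most after MMP3 between the H4 groups, for MMP10, which lies between MMP8 and MMP1 in the MMP cluster of chromosome 11 and was low on all 16 arrays, and for TIMP1, which was high on all of them. Capitals mark matches to the letters TGANTCA (an AP-1-type site, the same on both strands), TATAAA (read on the gene's strand) and GGGCGG (a GC box, read on both strands and seen here as CCGCCC).
ADAMTS19, chr5:129460048-129460347, + strand: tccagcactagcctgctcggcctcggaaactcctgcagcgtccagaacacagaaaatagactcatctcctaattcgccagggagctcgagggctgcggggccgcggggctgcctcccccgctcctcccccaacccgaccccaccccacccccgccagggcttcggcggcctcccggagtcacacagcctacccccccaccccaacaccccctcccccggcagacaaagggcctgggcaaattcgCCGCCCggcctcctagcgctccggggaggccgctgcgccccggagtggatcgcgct
MMP10, chr11:102780579-102780878, - strand: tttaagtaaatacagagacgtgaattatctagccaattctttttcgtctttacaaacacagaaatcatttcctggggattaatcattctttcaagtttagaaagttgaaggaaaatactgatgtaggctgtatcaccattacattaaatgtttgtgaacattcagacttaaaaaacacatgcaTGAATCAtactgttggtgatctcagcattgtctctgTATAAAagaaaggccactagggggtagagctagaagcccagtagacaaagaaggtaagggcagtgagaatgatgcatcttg
TIMP1, chrX:47582186-47582485, + strand: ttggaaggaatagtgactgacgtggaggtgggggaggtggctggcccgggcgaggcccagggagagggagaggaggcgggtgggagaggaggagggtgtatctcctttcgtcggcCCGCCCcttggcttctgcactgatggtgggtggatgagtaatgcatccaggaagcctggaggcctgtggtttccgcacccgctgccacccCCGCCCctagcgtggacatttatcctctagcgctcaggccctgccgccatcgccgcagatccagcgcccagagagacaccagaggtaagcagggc
The MMP10 window held 1 TGANTCA match that begins 67 bases before the start and 1 TATAAA match that begins 31 bases before it, and 36.3% of its bases were G or C. TGANTCA occurred in 7.71% and TATAAA in 7.33% of the 35116 RefSeq windows of this length. The windows of ADAMTS19 and TIMP1 held neither of them. They were 70.7% and 65.0% G or C, against a median of 58.7% over all windows. ADAMTS19 had 1 GGGCGG match, 6 bases before the start, and TIMP1 had 2, at 135 and 45 bases before it, while 45.0% of all windows held at least 1. The windows of MMP14 and TIMP3, not printed here, held 1 and 5 GGGCGG matches and no match to the other motifs. A match is a stretch of letters and no measured binding site.

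Array medians were 6.23 to 6.30 in H4, 6.24 to 6.29 in HCT116 and at most 5.05 in 42MGBA, on the log2 scale of the deposited values. The 42MGBA arrays thus lie on another scale, and levels are set against those of other lines only as percentiles, the rank of a row among all rows of its array. STAG2 itself was at 6.57 to 6.96 in deficient and 8.87 to 8.94 in corrected H4 cells, and at 6.57 to 7.14 in knockout and 9.28 to 9.30 in wild-type HCT116 cells. In 42MGBA it was at 4.75 to 5.60 in deficient and 5.41 to 5.65 in corrected cells, which overlap, so the STAG2 level did not separate the labelled 42MGBA groups. Of 9 glial markers, 6 were below the array median on every H4 array and 7 on every 42MGBA array, among them OLIG2, S100B and AQP4. SLC1A3 was above it on every array of both lines (percentiles of 59.2 to 69.9 and 56.8 to 72.5), NES on every 42MGBA array (54.5 to 62.6), and GFAP (48.4 to 51.1) and SOX2 (31.4 to 51.2) reached it in H4. In HCT116, 6 of the 9 were below the median on every array as well. There NES lay at 53.1 to 58.5, GFAP at 48.4 to 50.6, SLC1A3 at 43.6 to 90.9 and SOX2 at 36.3 to 40.8. By these counts the glial list did not set H4 and 42MGBA apart from HCT116. Among colorectal markers in HCT116, EPCAM lay at percentiles of 96.6 to 97.5 and KRT8 at 99.5 to 99.8, while KRT20, VIL1, GPA33 and CDH17 were below the median. Of 8 leukocyte and endothelial markers, 7 were below the median on all arrays of each line. The mean log2 level of 10 fibroblast and mesenchymal markers was 6.89 to 7.92 on deficient and 8.39 to 8.94 on corrected H4 arrays, so this marker list moved with STAG2 status in H4. Its part in the H4 results below was not tested. In RNA of whole cultures, fewer cells of a kind and less RNA per cell cannot be told apart.

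**Figure D1:**
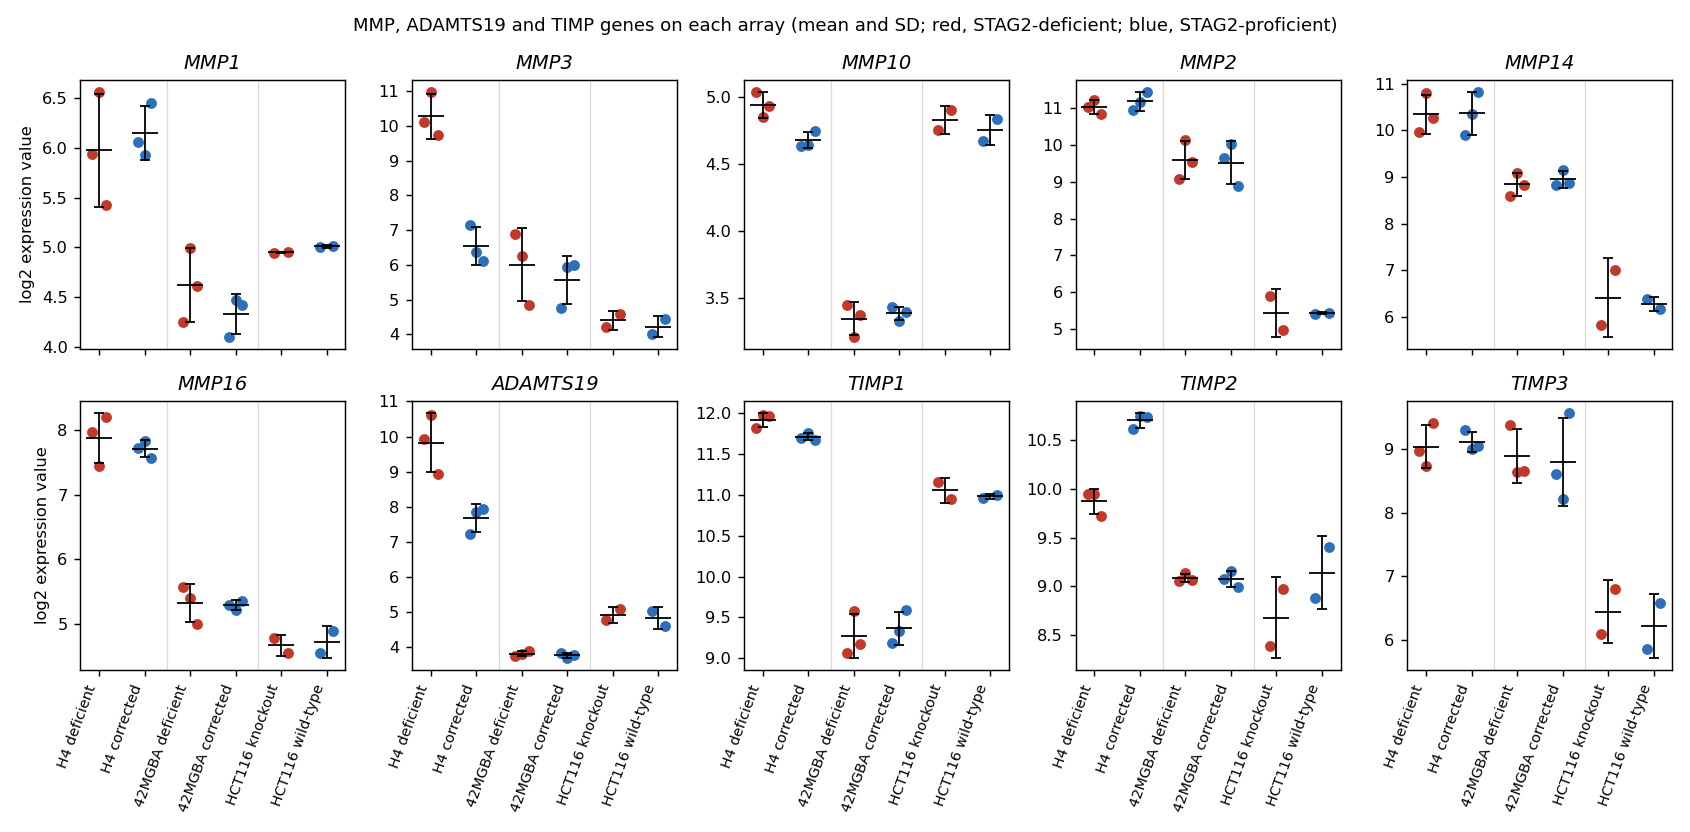
Log2 expression value (vertical axis, with a range of its own in each panel) of the 10 genes on each of the 16 arrays, with the mean and SD of each group; red points are STAG2-deficient and blue points STAG2-proficient arrays. MMP3 and ADAMTS19 lie higher and TIMP2 lower on the deficient H4 arrays, and MMP2, MMP14, MMP16 and TIMP3 lie lower in HCT116 than in H4.

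Of the 10 genes, 9 lay above the array median on at least 2 arrays and were tested, and MMP10 did not on any array. MMP1 met that rule on 2 arrays, 1 deficient and 1 corrected H4 array, and ADAMTS19 on the 6 H4 arrays only. In H4, 3 of the 9 tested genes passed the threshold of 0.05 on the adjusted p of limma, a linear-model test, where 3.31% of all 12978 genes tested did. MMP3 and ADAMTS19 were higher in deficient cells (1.3% of all genes were called higher) and TIMP2 was lower (2.0% were called lower). The groups of 3 arrays did not overlap for 5 of the 10 genes, MMP3, MMP10, ADAMTS19 and TIMP1 on the higher side and TIMP2 on the lower, against 20.8% of all genes tested (12.1% higher and 8.68% lower). Because H4 results took part in the choice of genes, nothing is read from these counts.

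Among the collagenase and the stromelysins, MMP3 separated the H4 groups by the widest margin. MMP3 read 10.11, 10.97 and 9.73 in the deficient H4 parental cells and clones 10 and 12, against 7.16, 6.38 and 6.10 in the corrected clones 8-1, 8-3 and 88-1. The lowest deficient array lay above the highest corrected one, and clone 10 was the highest of the 6. The means were 10.27 ± 0.64 (SD, n = 3) and 6.55 ± 0.55 (SD, n = 3), a difference of 3.73 on the log2 scale (SE 0.47, 95% interval 2.72 to 4.73). By rank, MMP3 moved from a percentile of 90.6 to 96.2 in deficient to 47.1 to 63.0 in corrected H4 cells.

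MMP1, the collagenase whose zymogen MMP3 can activate, read 5.94, 6.56 and 5.43 on the deficient and 6.06, 5.93 and 6.45 on the corrected H4 arrays. The groups overlapped fully, and the difference was -0.17 (SE 0.24, 95% interval -0.68 to 0.34). MMP10, the other stromelysin, read 5.04, 4.85 and 4.93 on the deficient and 4.64, 4.65 and 4.75 on the corrected H4 arrays. These groups did not overlap, but every value was low, at percentiles of 26.3 to 31.6. In a fit without the filter on low rows the difference was 0.26 (SE 0.09, 95% interval 0.07 to 0.45), far smaller than that of MMP3.

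MMP3, MMP1 and MMP10 are neighbours on chromosome 11, where RefSeq places MMP7, MMP20, MMP27, MMP8, MMP10, MMP1, MMP3, MMP12 and MMP13 in this order between TMEM123 and DCUN1D5. MMP12, next to MMP3, lay at percentiles of 12.0 to 24.5 over all 16 arrays. MMP13, next in line, reached 45.6 to 60.0 in H4 and stayed at 20.4 to 31.7 in the other lines. Its H4 means, 6.56 in deficient cells and 6.33 in corrected ones, differed by 0.22 (SE 0.24, limma adjusted p = 0.719). Of the 5 analysed genes that flank the cluster (YAP1, BIRC2, TMEM123, DCUN1D5 and DYNC2H1), 0 passed the limma threshold in H4 and 0 did at an unadjusted p under 0.05. Over all genes tested, 3.31% passed and 2123 of 12978 had an unadjusted p under 0.05, so nothing is read from the counts of 0. The smallest p among the flanking genes was that of DCUN1D5, at 0.30 (SE 0.18, adjusted p = 0.434). By percentile, deficient H4 cells lay above corrected ones without overlap for DCUN1D5 (94.8 to 95.5 against 94.1 to 94.4). The same held for YAP1 (91.0 to 91.4 against 90.0 to 90.9), and the other flanking genes overlapped. By log2 value, a measure unlike these percentiles, 12.1% of all genes tested were higher without overlap, and nothing is read from the comparison.

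The gelatinase and the membrane-type enzymes showed no such separation in H4. MMP2 read 11.04, 11.22 and 10.85 on the deficient and 10.95, 11.17 and 11.44 on the corrected arrays, with a difference of -0.15 (SE 0.30, 95% interval -0.79 to 0.49). MMP14, its activator at the cell surface, read 9.98, 10.80 and 10.26 on the deficient and 9.91, 10.36 and 10.83 on the corrected arrays, with a difference of -0.02 (SE 0.28, 95% interval -0.63 to 0.59). Both genes overlapped between the groups, and the intervals still hold differences of either sign. Clone 12 was the lowest of the 6 arrays for MMP2 and clone 8-1 the lowest for MMP14, and clone 88-1 was the highest for both.

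MMP16, a membrane-type MMP, is represented by 2 rows. The row with the higher mean read 7.97, 7.45 and 8.21 on the deficient and 7.72, 7.84 and 7.57 on the corrected H4 arrays, a difference of 0.17 (SE 0.18, 95% interval -0.22 to 0.55) with overlapping groups. The other row had a mean of 7.37 ± 0.19 (SD, n = 3) in the deficient group and of 6.78 ± 0.12 (SD, n = 3) in the corrected one, without overlap, and its difference was 0.59. The H4 result for MMP16 thus depended on the row, and with the other row it was past the limma threshold. In 42MGBA and HCT116 that row differed by 0.01 and -0.08.

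ADAMTS19 read 9.93, 10.62 and 8.93 in the deficient H4 parental cells and clones 10 and 12, and 7.20, 7.85 and 7.95 in the corrected clones 8-1, 8-3 and 88-1. The groups did not overlap, and clone 12 came nearest to the corrected clones. The means were 9.82 ± 0.85 (SD, n = 3) and 7.67 ± 0.40 (SD, n = 3), which differ by 2.16 (SE 0.30, 95% interval 1.51 to 2.81). The SE and interval rest on a spread shared by all groups, with a pooled SD of 0.44, and are not the precision of H4 alone. With H4 fitted alone, ADAMTS19 did not pass the threshold. The 3 deficient arrays kept the same order for MMP3 and ADAMTS19, with clone 10 highest and clone 12 lowest, while the corrected clones ran in opposite orders.

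The inhibitors did not move as a group. TIMP2, which inhibits MMPs and also takes part in the activation of MMP2, read 9.94, 9.95 and 9.72 on the deficient and 10.61, 10.75 and 10.74 on the corrected H4 arrays. All 3 deficient arrays lay below all 3 corrected ones, with means of 9.87 ± 0.13 (SD, n = 3) and 10.70 ± 0.08 (SD, n = 3) and a difference of -0.83 (SE 0.15, 95% interval -1.14 to -0.52). TIMP1, a secreted inhibitor of most MMPs, read 11.82, 11.97 and 11.96 on the deficient and 11.70, 11.76 and 11.67 on the corrected arrays. The TIMP1 groups did not overlap either, but the difference was 0.21 (SE 0.13, 95% interval -0.07 to 0.49). TIMP3, which binds to the matrix and also blocks ADAM and ADAMTS enzymes, read 8.97, 8.74 and 9.42 on the deficient and 9.30, 9.01 and 9.05 on the corrected arrays. The TIMP3 groups overlapped, with a difference of -0.08 (SE 0.32, 95% interval -0.76 to 0.60), and its other row gave -0.15.

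**Figure D2:**
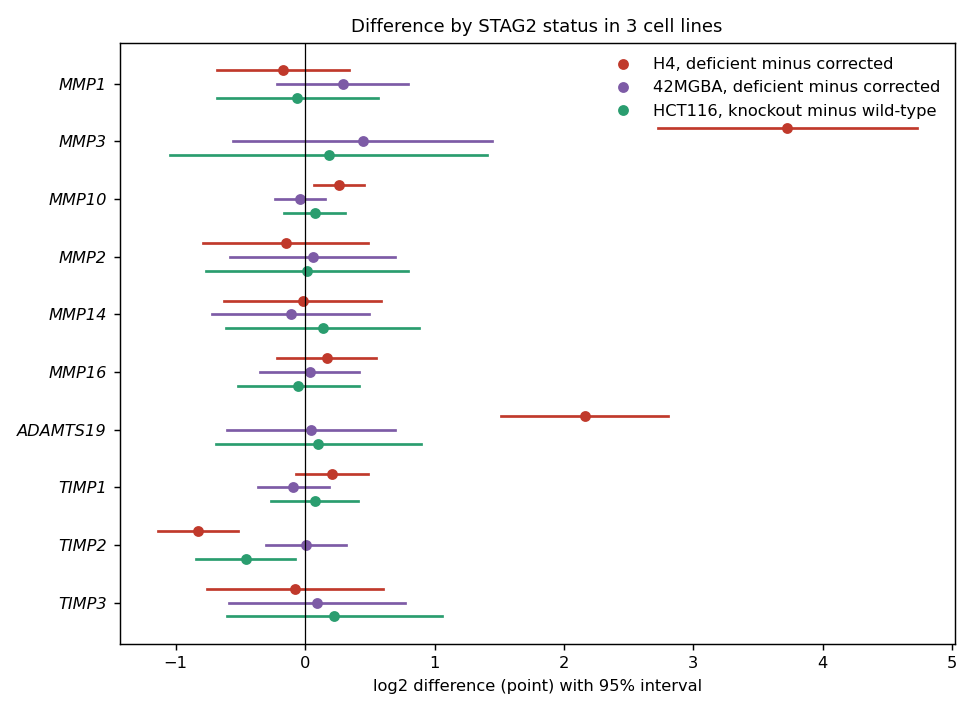
Log2 difference by STAG2 status (horizontal axis; points, with 95% intervals as lines) of the 10 genes in H4, 42MGBA and HCT116, from the limma fit, with MMP10 from the fit without a filter. The intervals of MMP3 (3.73), ADAMTS19 (2.16), TIMP2 (-0.83) and MMP10 (0.26) in H4 and of TIMP2 (-0.46) in HCT116 exclude 0, and in 42MGBA every interval includes it.

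In 42MGBA, 0 of the 9 tested genes passed the limma threshold and 0 did at an unadjusted p under 0.05, where 0.0% of all genes tested passed and 512 of them had an unadjusted p under 0.05. None of the 10 genes separated the groups without overlap, which 8.91% of all genes tested did. MMP3 read 6.90, 6.27 and 4.85 in the deficient parental cells and clones 53 and 92, and 4.76, 5.92 and 6.00 in the corrected clones 53-1, 53-7 and 92-6. The spread within each group was wide, at 6.00 ± 1.05 (SD, n = 3) against 5.56 ± 0.70 (SD, n = 3), and the difference was 0.44 (SE 0.47, 95% interval -0.56 to 1.44, adjusted p = 1.00). It rested on the parental array, without which it was -0.0028.

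ADAMTS19 in 42MGBA read 3.74, 3.79 and 3.89 on the deficient and 3.82, 3.68 and 3.78 on the corrected arrays. All 6 values were low and close together, and the difference was 0.05 (SE 0.30, 95% interval -0.60 to 0.69). This SE rests on a spread shared by all groups, while the SDs here were 0.0748 in deficient and 0.0697 in corrected cells. TIMP2 in 42MGBA read 9.06, 9.14 and 9.06 on the deficient and 9.08, 9.16 and 8.99 on the corrected arrays. The difference was 0.01 (SE 0.15, 95% interval -0.30 to 0.32). The other differences in 42MGBA were 0.29 for MMP1, 0.06 for MMP2, -0.11 for MMP14, 0.03 for MMP16, -0.09 for TIMP1 and 0.09 for TIMP3, each with an adjusted p of 1.00.

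MMP2 and TIMP3 varied between 42MGBA clones rather than between the labelled groups. MMP2 read 9.08, 10.12 and 9.55 on the deficient and 9.65, 10.04 and 8.88 on the corrected arrays. TIMP3 read 9.39, 8.64 and 8.66 on the deficient and 8.61, 8.21 and 9.57 on the corrected arrays. In each group the array with the lowest MMP2, the parental cells or clone 92-6, was the one with the highest TIMP3, a pattern seen after the values were known.

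In HCT116, 0 of the 9 tested genes passed the limma threshold and 1 had an unadjusted p under 0.05, where 0.131% of all genes tested passed and 1016 of the 12978 had an unadjusted p under 0.05. That gene was TIMP2, which read 8.88 and 9.40 in the wild-type clones 24 and 27 and 8.39 and 8.97 in the knockout clones 7 and 21. The groups overlapped, and the difference was -0.46 (SE 0.18, 95% interval -0.84 to -0.08, adjusted p = 0.554). Without knockout clone 7 it was -0.17, and without knockout clone 21 it was -0.75. MMP3 read 4.01 and 4.43 in wild-type and 4.21 and 4.59 in knockout clones, all of them low, with a difference of 0.18 (SE 0.57, 95% interval -1.04 to 1.41, adjusted p = 0.974). ADAMTS19 read 5.03 and 4.60 in wild-type and 4.76 and 5.07 in knockout clones, with a difference of 0.10 (SE 0.37, 95% interval -0.69 to 0.90, adjusted p = 0.977).

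The remaining differences in HCT116 ran from -0.06 for MMP1 to 0.22 for TIMP3, with adjusted p from 0.943 to 0.997. MMP1 was the one gene of the 10 whose groups did not overlap, with means of 5.01 in wild-type and 4.95 in knockout clones, while 40.7% of all genes tested did not overlap (22.1% were lower). The knockout clones differed more from each other than from the wild type for MMP14, at 5.82 and 7.01 against 6.39 and 6.17, and for MMP2, at 5.89 and 4.97 against 5.40 and 5.44. For both genes the knockout clones lay on either side of the wild-type ones.

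The H4 differences were also set against those of the other lines. They hold the H4 values that informed the choice of genes, so the gaps are given with intervals and without p-values, and nothing is read from them. For MMP3 the H4 difference lay 3.54 (95% interval 1.96 to 5.13) above that of HCT116 and 3.28 (1.87 to 4.70) above that of 42MGBA. For ADAMTS19 the gaps were 2.06 (1.03 to 3.08) and 2.11 (1.20 to 3.03). For TIMP2 they were -0.37 (-0.86 to 0.12) and -0.84 (-1.28 to -0.39), with the H4 difference the more negative. The intervals are not adjusted for the number of genes tested, and none of these gaps passed the limma threshold. Values also spread less on the 42MGBA arrays, with a mean interquartile range of 3.18 against 3.60 in H4. Gaps to 42MGBA thus set log2 differences on unlike scales against each other.

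For MMP2, MMP14, MMP16 and TIMP3 the level by rank set HCT116 apart from the other lines. MMP2 lay at percentiles of 94.6 to 98.0 in H4 and 42MGBA and at 31.1 to 44.8 in HCT116. MMP14 lay at 91.7 to 95.9 in the former and 43.6 to 60.8 in the latter. The 4 groups of H4 and 42MGBA overlapped for both genes, and so did the HCT116 groups, with a clear gap between. With the row used, TIMP3 was ordered by line, at 91.5 to 96.8 in 42MGBA, 81.8 to 88.1 in H4 and 44.0 to 57.6 in HCT116, and within each line the groups overlapped. MMP16, also by the row used, had the order H4 (66.8 to 76.2), 42MGBA (49.8 to 58.6) and HCT116 (25.3 to 30.1), again with overlap within each line. The order of H4 and 42MGBA depended on the row. With the other row of MMP16, deficient H4 cells lay at 63.4 to 68.6, corrected H4 cells at 55.8 to 59.2 and 42MGBA at 58.8 to 63.7, and with that of TIMP3 H4 (43.4 to 54.3) and 42MGBA (39.9 to 64.8) overlapped. HCT116 was lowest with these rows as well, at 15.5 to 18.0 for MMP16 and 24.2 to 27.2 for TIMP3.

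MMP3 showed another order. The deficient H4 arrays stood alone at 90.6 to 96.2, the 42MGBA groups (45.4 to 79.5) and the corrected H4 group (47.1 to 63.0) overlapped, and HCT116 followed at 18.2 to 26.0. ADAMTS19 was at 84.0 to 94.9 in deficient and 63.7 to 72.6 in corrected H4 cells, while the 4 groups of the other lines overlapped between 26.0 and 32.8. Corrected H4 cells thus still ranked ADAMTS19 above every array of 42MGBA and HCT116.

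TIMP1 was at a percentile of 95.3 or more on all 16 arrays, highest in H4 at 97.9 to 98.4. TIMP2 had mean percentiles of 95.4 to 95.6 in corrected H4 cells and both 42MGBA groups, which overlapped, and lay at 90.4 to 91.9 in deficient H4 cells and at 78.4 to 88.1 in HCT116. MMP1 ranged from 35.6 to 55.0 in H4 and 42MGBA, where neighbouring groups overlapped, and from 30.7 to 31.8 in HCT116. MMP10 did not leave the range of 22.0 to 31.6.

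**Figure D3:**
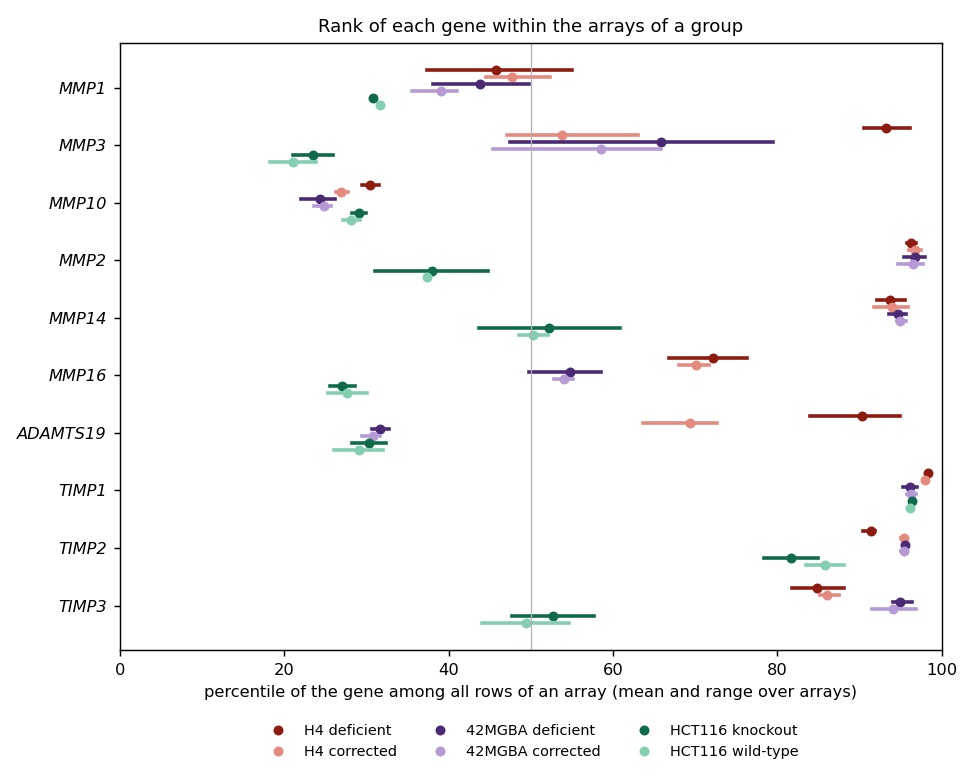
Percentile of each gene among all rows of an array (horizontal axis; points are group means and lines the range over the 2 or 3 arrays of a group), with the grey line at the array median. MMP2 and MMP14 rank above 91 in H4 and 42MGBA and below 61 in HCT116, TIMP1 ranks above 95 in every group, and the deficient H4 arrays rank MMP3 above 90.

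H4 and HCT116 lie on a like scale and could be compared by log2 value, at like STAG2 status. All 9 tested genes were higher in corrected H4 than in wild-type HCT116 cells, where 23.7% of all genes tested were called higher, and all 9 were higher in deficient H4 than in knockout HCT116 cells, where 23.2% were. The groups did not overlap for 9 of the 10 genes in both comparisons, against 31.5% and 29.3% of genes that were higher without overlap. These counts carry the filter that some of the genes passed only through H4, and in a fit without it 9 of 10 genes passed as higher, against 18.1% and 17.5% of all genes. MMP10 was the exception, at -0.08 (adjusted p = 0.605) and 0.11 (adjusted p = 0.446). Since the choice of genes was made with results of H4 in view, the counts describe these genes and support nothing further.

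The 2 comparisons use separate arrays. MMP2 differed most between the proficient groups, by 5.76 (SE 0.33, adjusted p = 2.05e-09), and by 5.60 (SE 0.33, adjusted p = 2.91e-09) between the deficient ones. MMP14 differed by 4.09 (SE 0.32, adjusted p = 5.85e-08) and 3.93 (SE 0.32, adjusted p = 9.55e-08), so that both members of this activation pathway moved with the line. The smaller differences were those of MMP16 (2.99 and 3.21), TIMP3 (2.90 and 2.60) and TIMP1 (0.73 and 0.86), with adjusted p of 0.000614 or less. TIMP2 differed by 1.56 and 1.19. With its other row TIMP3 differed by 1.71 (adjusted p = 0.000602) and 1.43 (adjusted p = 0.00277). MMP1 differed by 1.14 (SE 0.27) and 1.03 (SE 0.27). MMP3 differed by 2.32 (SE 0.52) between the proficient groups and by 5.87 (SE 0.52) between the deficient ones. ADAMTS19 differed by 2.85 (SE 0.34) and 4.91 (SE 0.34). MMP1 and ADAMTS19 entered the test through H4 arrays alone, where they are higher, and are given without a p. The values of MMP3 and TIMP2 rest on the H4 arrays of the difference by STAG2 status described above and have no p for that reason.

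**Figure D4:**
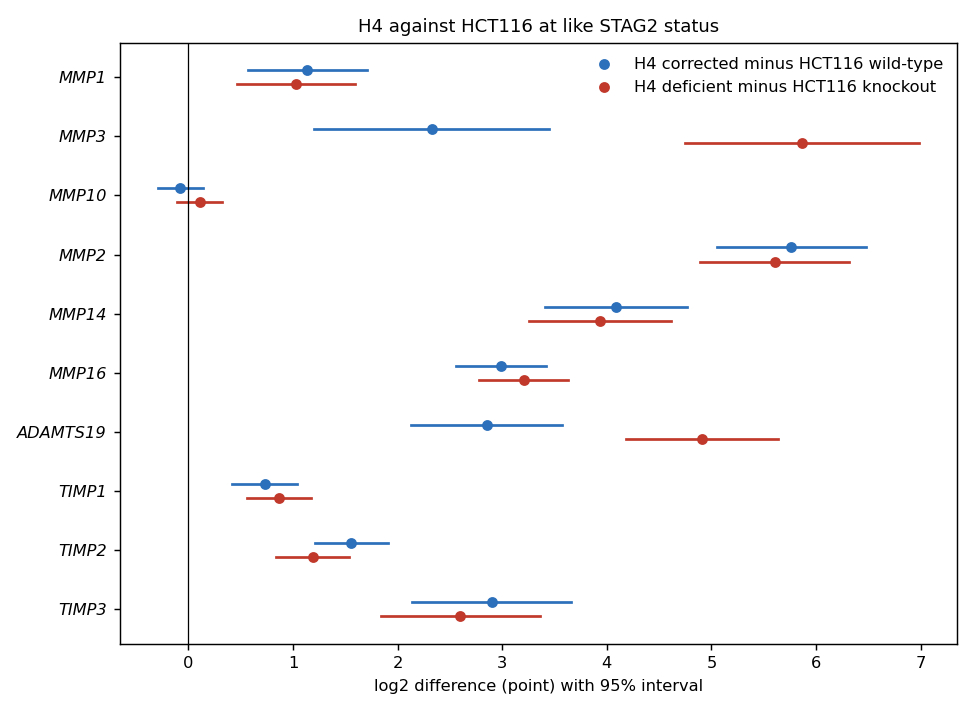
Log2 difference between H4 and HCT116 cells (horizontal axis; points, with 95% intervals as lines), corrected H4 minus wild-type HCT116 in blue and deficient H4 minus knockout HCT116 in red. The intervals of 9 genes lie above 0 in both comparisons, that of MMP10 includes 0, and the 2 comparisons part for MMP3 (2.32 and 5.87) and ADAMTS19 (2.85 and 4.91).

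Several of the 10 genes varied more between arrays of one group than most genes do. The pooled SD within groups was 0.69 for MMP3, 0.46 for TIMP3, 0.44 for ADAMTS19, 0.43 for MMP2, 0.41 for MMP14 and 0.34 for MMP1, against a median of 0.148 over all genes tested. Each of these 6 SDs ranked above the 95th percentile of all genes. TIMP1 (0.17) and TIMP2 (0.19) were nearer to the median, and MMP16 (0.25) was between, so equal differences carry unequal weight across the 10 genes.

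For 4 genes the genes with the most similar profile over the 16 arrays were listed, by Pearson's r of values centred on the mean of each line. The values share arrays and STAG2 status, and are descriptions without a test. Those nearest to MMP3 were SEMA3D (0.909), IL18 (0.907), BCL7B (0.897), GPAA1 (0.894) and LOX (0.892). Those nearest to ADAMTS19 were STXBP2 (0.958), ABCC2 (0.948), SEMA3D (0.946), SYTL5 (0.901) and PCDH7 (0.900). SEMA3D stood on both lists, and MMP3 and ADAMTS19 correlated with each other at 0.818. TIMP2 ran the other way, at -0.69 with MMP3 and -0.66 with ADAMTS19. MMP16 was most like RHBDL1 (0.883), WDR97 (0.848), PTPN11 (0.841), RCOR1 (0.840) and TPRN (0.822), and TIMP3 most like RRAS2 (0.862), SMAP1 (0.800), PPP2R5D (0.789), DEK (0.782) and SYT6 (0.781).

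Other genes of the pathway were taken from lists by function, which were chosen with earlier results of these data known. Their counts and p-values in H4 are therefore descriptions, and nothing further is read from them. The counts stand beside 1.3% of all genes called higher, 2.0% called lower and 2123 of 12978 with an unadjusted p under 0.05. Of 7 other MMP genes tested with limma, 0 passed in H4 and 1 did at an unadjusted p under 0.05, MMP19 at -0.36 (SE 0.15, adjusted p = 0.237). Of 11 other ADAMTS genes, 0 passed and 1 had an unadjusted p under 0.05, ADAMTS12 at -0.68 (SE 0.18, adjusted p = 0.0532). Of 11 ADAM genes, a family in which only some members shed membrane proteins, 0 passed and 4 had an unadjusted p under 0.05. ADAM23 was first at -0.87 (SE 0.28, adjusted p = 0.106). The median difference was 0.05, -0.07 and 0.03 for the 3 lists, beside 0.02 for all genes tested, so these lists had medians near that of all genes.

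Of 6 other inhibitors of metalloproteases and related regulators, 1 was lower in deficient H4 cells. SPOCK1, a proteoglycan known to affect MMP activation, was at 6.37 in deficient and 7.84 in corrected cells, a difference of -1.47 (SE 0.24, adjusted p = 0.00490), without overlap. Of 10 genes of the plasminogen system and other zymogen activators, 0 passed and 2 had an unadjusted p under 0.05, with SERPINE2, a protease inhibitor of plasminogen activators, at -0.78 (SE 0.26, adjusted p = 0.122). The median differences of these lists were -0.08 and 0.10.

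Of 15 AP-1 and ETS transcription factors, families known to bind MMP promoters, 1 was higher in deficient H4 cells, ETV1 at 0.79 (SE 0.14, adjusted p = 0.00898). Of 11 cytokines, growth factors and receptors known to act on MMP genes, 1 was lower, the receptor EGFR at -1.03 (SE 0.15, adjusted p = 0.00215). Both separated the H4 groups without overlap, and the medians of the lists were 0.12 and -0.18. ETV1 lost its call with H4 fitted alone (adjusted p = 0.0831).

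Genes for matrix proteins that MMPs cut were lower as far as they passed. Of 19 tested, 6 were lower in deficient H4 cells and 0 higher, with a median of -0.55, where 2.0% of all genes were called lower and the median was 0.02. COL4A1 and COL4A2, chains of the basement membrane collagen, were at -1.34 (SE 0.21, adjusted p = 0.00364) and -0.96 (SE 0.17, adjusted p = 0.00898). COL1A1, a chain of the main fibrillar collagen, was at -1.49 (SE 0.27, adjusted p = 0.00898), and DCN, the collagen-binding proteoglycan decorin, at -2.48 (SE 0.46, adjusted p = 0.00927). COL3A1 and LUM were the other 2. Of the 10 fibroblast and mesenchymal markers, 7 were lower and 0 higher, with a median of -1.42, beside the same values over all genes. FAP, a membrane protease of activated fibroblasts, was first at -2.61 (SE 0.32, adjusted p = 0.000778), and PDGFRA was at -1.36 (SE 0.26, adjusted p = 0.0109). The 2 lists share 5 genes, COL1A1, COL1A2, COL3A1, DCN and LUM, and the mean log2 level of the marker list moved with STAG2 status in H4 as given above. Both lists were chosen with earlier results of these data known, so their counts and p-values describe these genes and support nothing further.

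Some of these calls rested on single arrays, on sister clones or on the shared spread. With H4 fitted alone, COL1A1 (adjusted p = 0.137), COL3A1 (0.170), COL4A1 (0.0859), COL4A2 (0.0998), FAP (0.0531), LUM (0.173), PDGFRA (0.133) and PDGFRB (0.0756) did not pass, while DCN (0.0381), SPOCK1 (0.0381) and EGFR (0.0363) did. With the sister clones 8-1 and 8-3 averaged, COL3A1 (0.0523), LUM (0.0728) and PDGFRB (0.0851) lost their calls. Without the 42MGBA arrays, COL1A1 (0.0555), COL3A1 (0.0783), LUM (0.0821) and PDGFRA (0.0551) did. Leaving out 1 H4 array ended the call of COL3A1 without clone 12 (0.0729), 8-1 (0.0736) or 88-1 (0.0651), of LUM without clone 8-3 (0.0711) or 88-1 (0.0810), of PDGFRA without clone 12 (0.0508), and of PDGFRB without clone 12 (0.107), 8-1 (0.0669), 8-3 (0.0613) or 88-1 (0.0835). Of 4 glial markers tested in H4, 7 colorectal markers and the 1 leukocyte marker, CD68, 0 passed and 0, 1 and 1 had an unadjusted p under 0.05 in limma, with SOX2 at -0.45 (adjusted p = 0.366), KRT8 at -0.97 (adjusted p = 0.227) and CD68 at 0.67 (adjusted p = 0.134).

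In 42MGBA and HCT116, 0 genes of any list passed the limma threshold. In 42MGBA the smallest p of each protease list was that of MMP15 at -0.19, ADAMTS13 at -0.20 and ADAM12 at 0.46, and SPOCK1 (-0.55), SERPINE2 (-0.81), ETV4 (-0.51), EGFR (-0.41) and DCN (1.08) led the lists of inhibitors, plasminogen genes, transcription factors, growth factors and substrates, each with an adjusted p of 1.00. SPOCK1, SERPINE2 and EGFR were the leading genes of their lists in H4 as well, with the same sign, though SERPINE2 did not pass in H4. The lists of other MMP, ADAMTS and ADAM genes, transcription factors and substrates had different leaders in H4 and 42MGBA. With no call in 42MGBA, nothing is read from the shared leaders. DCN had opposite signs in the 2 lines. In HCT116 the leading genes were MMP13 (-0.42, adjusted p = 0.772), ADAMTS14 (-0.41, 0.610), ADAM15 (-0.43, 0.621), TIMP4 (0.19, 0.845), PLAU (-0.84, 0.485), ETS1 (-0.62, 0.457), EREG (-0.55, 0.655) and LAMB1 (0.88, 0.244). The number of genes with an unadjusted p under 0.05 was at most 2 per list in 42MGBA and at most 4 in HCT116. Over all 12978 genes tested it was 512 in 42MGBA and 1016 in HCT116.

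**Figure D5:**
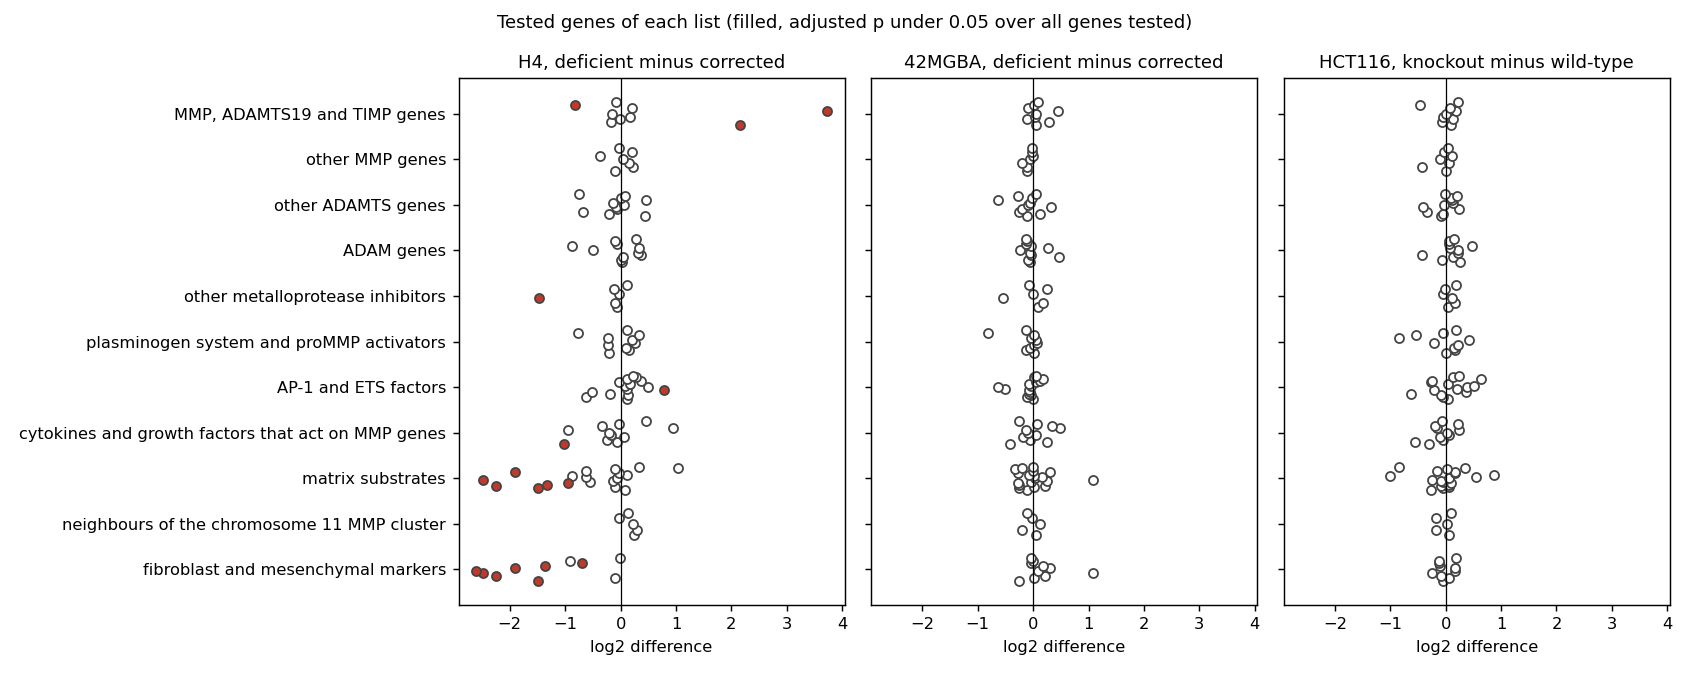
Log2 difference by STAG2 status (horizontal axis) of each tested gene of the 10 genes and of 10 further lists, in H4, 42MGBA and HCT116; filled points passed an adjusted p of 0.05 over all genes tested. In H4, 6 matrix substrates and 7 mesenchymal markers lie lower, and outside these lists, the 10 genes, SPOCK1, ETV1 and EGFR no point is filled; in the other lines none is.

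Between H4 and HCT116, MMP13 and MMP15 of the other MMP genes differed in opposite directions. MMP13, a collagenase, was higher in H4 by 1.69 (SE 0.26) between the proficient and 2.34 (SE 0.26) between the deficient groups, and has no p here, since it entered the test through H4 arrays alone. MMP15, a membrane-type enzyme, was lower in H4, at -1.62 (adjusted p = 3.51e-08) and -1.54 (adjusted p = 6.53e-08). Of the 7 other MMP genes tested, 1 was higher and 1 lower in the first comparison and 2 were higher and 2 lower in the second. Of the 6 other inhibitors, 4 and 3 were higher in H4 and 0 lower, among them RECK, a membrane-anchored MMP inhibitor, at 1.64 and 1.36. Of all 12978 genes tested, 3078 were called higher and 3766 lower in the first comparison, and 3013 and 3224 in the second. The counts of these lists describe their genes, and nothing further is read from them.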

How the data were processed

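The deposited values are log2 signals for 33297 rows on 16 arrays of the Affymetrix Human Gene ST design, which the authors made by RMA in Affymetrix Expression Console, as the submitters' processing notes name it; versions are not given in the sources used here. Their range shows the log2 scale. The number of arrays limits the precision. Groups came from the sample titles. Rows with 1 gene symbol in the platform annotation (19460 of 33297) were used, with 19429 symbols updated to RefSeq names of GRCh38.p14 through the Entrez identifier. Rows naming several genes (1754) and rows not listed there (12083) were left out. The row with the highest mean stood for a gene, and 12978 of 18417 genes, above the median of an array on at least 2 arrays, were tested.

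The 6 groups entered 1 model of the 16 arrays (limma 3.58.1 under R 4.3.3, lmFit and eBayes), and two-sided p-values were adjusted by Benjamini-Hochberg over all genes tested, with a threshold of 0.05. The SE rests on a spread shared by all groups. On simulated data for H4, 92% of changes of 1 log2 unit and 100% of changes of 2 were recovered, with 8 false calls among 200. The simulated noise was independent and normal, with the same SD of a gene in all groups. It did not cover unequal spread between lines or sister clones, so these rates need not hold for the real arrays. The genes described and the 13 further lists were chosen with earlier results of these data known. Up to 4 called genes of each list with the smallest p were named, otherwise the 1 with the smallest p; MMP13 and MMP15 between lines, RECK, and the further genes called in H4 were named after their values were seen. The alternatives tried were each line alone, no filter, quantile normalization, median centring, a trended robust prior, no 42MGBA arrays, no parental arrays, the mean row, the parent clone as a block or averaged, the lower row of MMP16 and TIMP3 (chosen after seeing the data) and leaving out each array. List genes without a row of their own (among them MMP23B, ADAMTS7, ADAMTS15, SERPINB2, AREG and BIRC3) were not analysed here.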

Additional observations from a re-analysis of the deposited data

Results flagged for a closer look

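Among the genes named, 5 differences between lines passed the threshold in a limma test of the difference itself. The difference of FAP by STAG2 status in H4 was -2.77 (-3.86 to -1.68) away from that in HCT116. It was -2.69 (-3.67 to -1.72) away from that in 42MGBA. That of DCN in H4 was -3.56 (-4.94 to -2.18) away from that in 42MGBA, with the 2 lines differing in sign. FAP and DCN were named for their small p in H4, so their gaps are given with intervals and without p-values. Nothing is read from these gaps, and with H4 fitted alone FAP did not pass the threshold. STAG2 differed by status in H4 by -1.89 more than in 42MGBA (adjusted p = 0.00902), and the 42MGBA difference was 2.14 above that of HCT116 (adjusted p = 0.0140). Gaps that involve 42MGBA cross unlike array scales, as given above.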

How the results depend on the processing

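The number of the 9 tested genes past the threshold kept within 1.5 times its value under every alternative, at 3 in H4 (2 with each line fitted alone and 4 with the lower row of MMP16 and TIMP3), 0 in 42MGBA, 0 in HCT116 and 9 in both comparisons of H4 with HCT116. Of the 45 differences, 1107 values under an alternative kept direction and side of the threshold, 43 changed sign without being called, 1 gained and 1 lost its call. ADAMTS19 in H4 lost it with each line fitted alone (2.16), and MMP16 in H4 gained it with its lower row (0.59). In the fit of H4 alone only H4 arrays set the spread of ADAMTS19. Its SDs there were 0.85 in deficient and 0.40 in corrected cells, against 0.44 pooled over all groups. Leaving out an array, MMP3 in H4 ranged from 3.37 to 4.03, ADAMTS19 from 1.76 to 2.61 and TIMP2 from -0.87 to -0.75, past the threshold each time. The signs that changed belonged to small differences. MMP14 in H4 was 0.021 with arrays centred on their median and 0.17 without the parental arrays. Without the parental arrays the 42MGBA values were -0.0028 for MMP3, 0.0086 for MMP14, -0.0867 for MMP16, 0.014 for TIMP1 and -0.15 for TIMP3. With the parent clone as a replicate block in 42MGBA, the paired values were 0.0385 for MMP14, -0.069 for MMP16, 0.0109 for TIMP1 and -0.27 for TIMP3, and no call changed; with corrected clones of 1 parent clone averaged, TIMP3 was -0.10. No paired analysis was possible because the labels share no parent clones between groups in H4 and HCT116. Leaving out an array, differences that changed sign ranged in H4 from -0.46 to 0.10 for MMP1, -0.25 to 0.21 for MMP14 and -0.26 to 0.0726 for TIMP3. In 42MGBA they ranged from -0.26 to 0.32 for MMP2, -0.0028 to 1.02 for MMP3, -0.24 to 0.0086 for MMP14, -0.0867 to 0.19 for MMP16, -0.24 to 0.0192 for TIMP1, -0.0343 to 0.048 for TIMP2 and -0.20 to 0.48 for TIMP3. In HCT116 they ranged from -0.45 to 0.47 for MMP2, -0.0303 to 0.39 for MMP3, -0.46 to 0.73 for MMP14, -0.23 to 0.12 for MMP16, -0.12 to 0.32 for ADAMTS19, -0.0345 to 0.18 for TIMP1 and -0.13 to 0.58 for TIMP3. The count over all genes in H4 was 429, against 34 with each line alone, 190 without the 42MGBA arrays and 165 with clones of 1 parent averaged; leaving out an array gave 169 (without clone 8-3) to 631 (without the parental array). In HCT116 it was 17, against 3 with each line alone, 3 without the 42MGBA arrays, 11 with the trended prior and 10 with clones averaged, and 5 (without wild-type clone 27) to 77 (without knockout clone 7) when an array was left out. Where not stated, the cause was not tested. With 2 or 3 arrays a group, the intervals of the more variable genes still hold differences past 0.5 on the log2 scale, and row signal over background was not given.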
